A study of Mus musculus with 4 samples.

Results

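The genes examined here encode the enzymes that build cholesterol, the proteins that sense and regulate sterols, and the proteins that move cholesterol within and out of cells. They were listed by name, and a gene was measured where the array annotation gave a probe set with its symbol alone. Of 29 listed genes 28 were measured, among 18194 genes in all, and the thiolase gene Acat2 was left without a value. The level of a gene is the log2 of the deposited intensity of whichever of its probe sets had the highest mean. All 28 lay above the intensity filter (a mean log2 intensity of 6.58), which kept 10916 genes for testing.

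RNA was from dorsal skin of male C57B6 mice on postnatal day 54 (P54, 2 arrays), a middle time of adult telogen, and on postnatal day 59 (P59, 2 arrays), a late time. Telogen is the resting phase of the hair follicle. The groups share strain, sex and tissue, and the labels name no genotype or treatment that sets them apart. The labels call the samples of a group biological replicates without telling how many animals made up each, so p-values rest on the spread between these samples. The limma fit draws the spread of each gene towards that of all genes. Sc5d, with standard deviations of 0.02 at P54 and 0.00 at P59, thus had an SE of 0.22.

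The arrays carried the transcripts of whole skin. Keratinocyte genes Krt5, Krt14, Krt1 and Krt10 had log2 intensities between 12.71 and 14.14 on every array, the fibroblast collagen gene Col1a1 between 14.46 and 14.52, and the adipocyte gene Adipoq between 11.68 and 12.36. Median log2 intensity lay between 6.02 and 6.12. P59 replicate 2 stood apart from the other arrays on the first principal component (57.3% of the variance), at a score of 35.4 against -22.5 to -4.3. In skin of many cell types, fewer cells of a type and less RNA per cell cannot be told apart.

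As background, cells make cholesterol from acetyl-CoA through mevalonate, farnesyl diphosphate, squalene and lanosterol. When membrane sterol is low, the escort protein SCAP carries the membrane-bound transcription factor SREBP-2, product of Srebf2, out of the endoplasmic reticulum to be cleaved, and its released part switches on the enzyme genes. INSIG proteins hold SCAP back when sterol is plentiful. Oxysterols activate the liver X receptors (LXR), which switch on exporters such as ABCA1 and ABCG1. In skin, cholesterol is needed for the lipid lamellae of the epidermal barrier and for sebum.

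No member differed between P54 and P59 past the adjusted threshold of 0.05 in limma's fit, where 0.0183% of all genes tested did. The synthesis enzymes lay within a narrow band, most of them slightly lower at P59. The largest difference was in Srebf2, which was 1.81-fold lower at P59, followed by the lysosomal transporter gene Npc1, 1.38-fold lower. Insig2, Abcg1, Mylip and Abca1 were between 1.28-fold and 1.34-fold higher at P59, with all P59 values above all P54 values. At an unadjusted p under 0.05 there was 1 member, Srebf2, in the lower direction, which 3.01% of all genes met. In the higher direction there were 0 members, against 3.47% of all genes (6.49% in either direction). Without P59 replicate 1 there were 7 members in either direction, and 2030 of the 10916 genes.

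Both P59 arrays lay below both P54 arrays for 12 of 28 members (42.9%), against 14.8% of all genes tested. They lay above for 5 members (17.9%), against 18.9% of all genes. The other 11 members overlapped, and 33.7% of all genes did not. Counting P59 replicate 1 alone, 15 members lay below both P54 arrays (36% of all genes) and 6 above (31.2%). Counting P59 replicate 2 alone, 16 lay below (28.7%) and 9 above (51.5%). The smallest p that an exact permutation test of these 4 arrays allows is 0.333, so none was used.

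**Figure D1:**
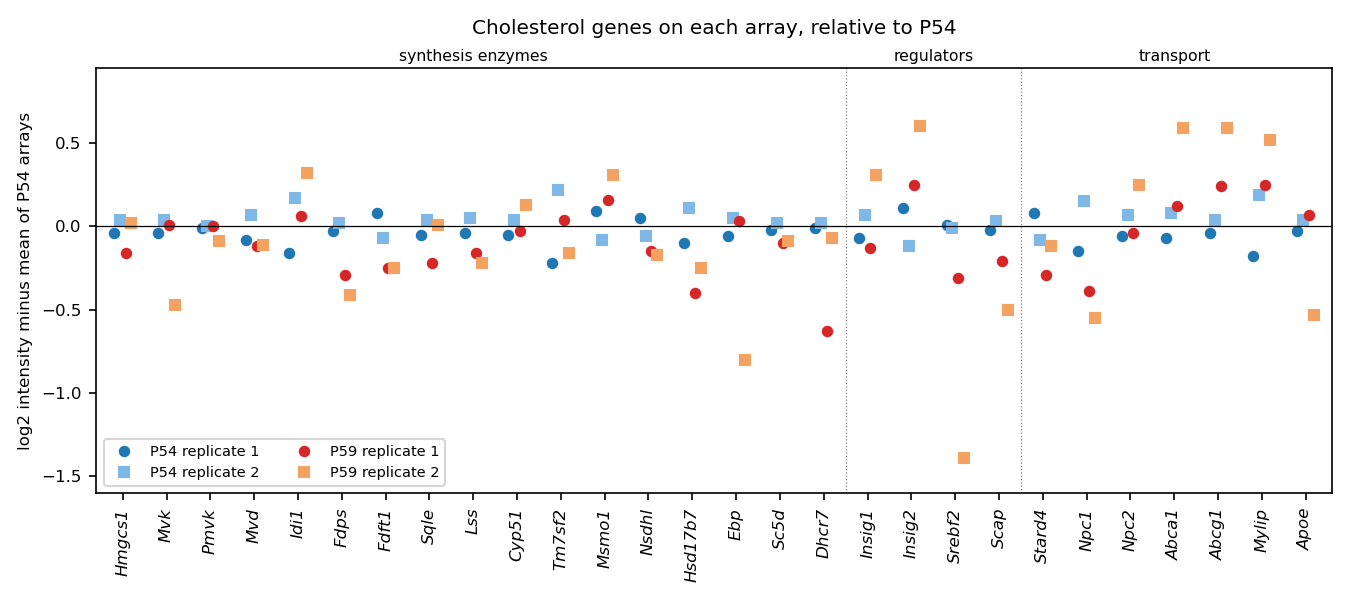
Log2 intensity of the 28 measured genes on each of the 4 arrays, minus the mean of the P54 arrays, in pathway order. Srebf2 in P59 replicate 2 is the lowest point, at -1.39. Insig2, Abca1, Abcg1 and Mylip lie above 0 on both P59 arrays, as do the enzymes Idi1 and Msmo1.

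Of the 17 enzyme genes measured, 14 were lower and 3 higher at P59 on average (58.4% of all genes were higher), with a median log2 difference of -0.11 beside 0.05 over all genes tested. Lower means made up 82.4% of the enzymes and 41.6% of all genes. The median deviation of the enzymes from the P54 mean was -0.11 in P59 replicate 1 and -0.11 in P59 replicate 2. Over all genes tested it was -0.00 and 0.12, so the enzymes lay further from all genes in P59 replicate 2. Differences ran from -0.38 to 0.23, and the 95% interval of every enzyme included 0. These intervals reached down to -1.03 (Ebp) and up to 0.73 (Msmo1), so differences of up to those sizes lie within the intervals. With either P59 array left out 12 enzymes were lower. Without P54 replicate 1 the enzyme median was -0.18 beside 0.12 over all genes, and without P54 replicate 2 it was -0.08 beside -0.03. The distance between the enzymes and all genes thus rests on which P54 array is kept.

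In the mevalonate arm, which ends in farnesyl diphosphate, 5 of 6 genes were lower on average. Hmgcs1, the HMG-CoA synthase that makes the substrate for mevalonate, had P54 values of 12.17 and 12.25 beside P59 values of 12.05 and 12.23 (log2 intensity, as are all values of single arrays below). The groups overlapped, and the difference was -0.07 (SE 0.23, adjusted p = 0.988). All 5 probe sets of Hmgcs1 gave differences between -0.23 and -0.01.

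The kinase genes of mevalonate, Mvk and Pmvk, differed by -0.23 and -0.04, and the arrays overlapped for both. Mvk was at 8.08 and 8.16 at P54, at 8.13 in P59 replicate 1 and at 7.65 in P59 replicate 2, so its lower mean came from the second P59 array. Its difference was 0.01 without that array. A second set of Mvk, at 7.64 and 7.71 against 7.59 and 6.61, did not overlap and differed by -0.58. Mvd, the decarboxylase that makes isopentenyl diphosphate, was at 8.09 and 8.24 against 8.05 and 8.06, a difference of -0.11. Groups were just apart for Mvd, and its second probe set, lower only in P59 replicate 2, differed by -0.41.

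Idi1, the isomerase of isopentenyl diphosphate, was the member of this arm with a higher mean. It had P54 values of 10.06 and 10.39 beside P59 values of 10.28 and 10.54, overlapping, with a difference of 0.19 (95% interval -0.35 to 0.72) that ranged from 0.02 (P54 replicate 1 left out) to 0.35 (P54 replicate 2 left out). Its second set, at 8.77 and 8.90 against 8.95 and 9.22, did not overlap and differed by 0.25. Fdps, the farnesyl diphosphate synthase at the branch to sterols and other isoprenoids, had P54 values of 10.50 and 10.55 beside P59 values of 10.24 and 10.12. Its groups were apart by more than the range within either group. The limma difference of Fdps was -0.34 (SE 0.22, adjusted p = 0.893), a fold of 1.27 towards P54.

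The sterol arm starts at squalene. Fdft1, the squalene synthase, was at 10.17 and 10.02 at P54 and at 9.84 on both P59 arrays, a difference of -0.25 (adjusted p = 0.940). Its other set above the filter differed by -0.33, with the P59 arrays again below the P54 arrays. Sqle, the squalene epoxidase, a rate-limiting step, was at 9.96 and 10.05 against 9.79 and 10.02. These overlapped (difference -0.10).

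Lss, which closes squalene epoxide into lanosterol, gave opposite answers with its probe sets. The set used had P54 values of 9.51 and 9.60 beside P59 values of 9.39 and 9.33 (difference -0.19). The other set above the filter had P54 values of 8.46 and 8.23 beside P59 values of 8.61 and 8.70, or 0.31 higher. The direction of Lss is thus not settled by these arrays.

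Genes of the steps that trim lanosterol varied in direction. Cyp51, the lanosterol demethylase, differed by 0.05 with overlapping groups (10.06 and 10.15 against 10.08 and 10.24). Msmo1, the methylsterol monooxygenase, had P54 values of 11.74 and 11.57 beside P59 values of 11.81 and 11.96. It was the enzyme whose P59 values both lay above its P54 values, by a mean of 0.23 (SE 0.23, adjusted p = 0.948). A dim second set of Msmo1 differed by -1.19, from 4.09 and 6.12 at P54 to 4.01 and 3.82 at P59, all under the filter.

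Hsd17b7 and Nsdhl, the reductase and dehydrogenase of the same demethylation complex, had lower means at P59, without overlap. Hsd17b7 was at 10.13 and 10.34 against 9.83 and 9.98 (difference -0.33, adjusted p = 0.916), and its other sets above the filter differed by -0.14 and -0.81 with overlap. The sets used for Hsd17b7, Hmgcs1, Fdft1 and Mvd, like that of Lss, may also hybridise with other transcripts, as their design suffix marks. Nsdhl was at 9.43 and 9.32 against 9.23 and 9.21 (difference -0.15). The sterol reductase gene Tm7sf2 overlapped (8.01 and 8.45 against 8.27 and 8.07), with a difference of -0.06.

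Among the last steps, Ebp, the sterol isomerase, was at 9.78 and 9.89 at P54, at 9.87 in P59 replicate 1 and at 9.04 in P59 replicate 2. Only the last array was low, and the difference of -0.38 became 0.03 without it. Dhcr7, the final reductase, which also removes the precursor of vitamin D, was at 10.08 and 10.11 at P54, at 9.46 in P59 replicate 1 and at 10.02 in P59 replicate 2. Here the low array was the first of P59, and the difference was -0.36 with it and -0.08 without it. The desaturase gene Sc5d was at 9.24 and 9.28 against 9.16 and 9.17, apart by a small step of -0.09.

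**Figure D2:**
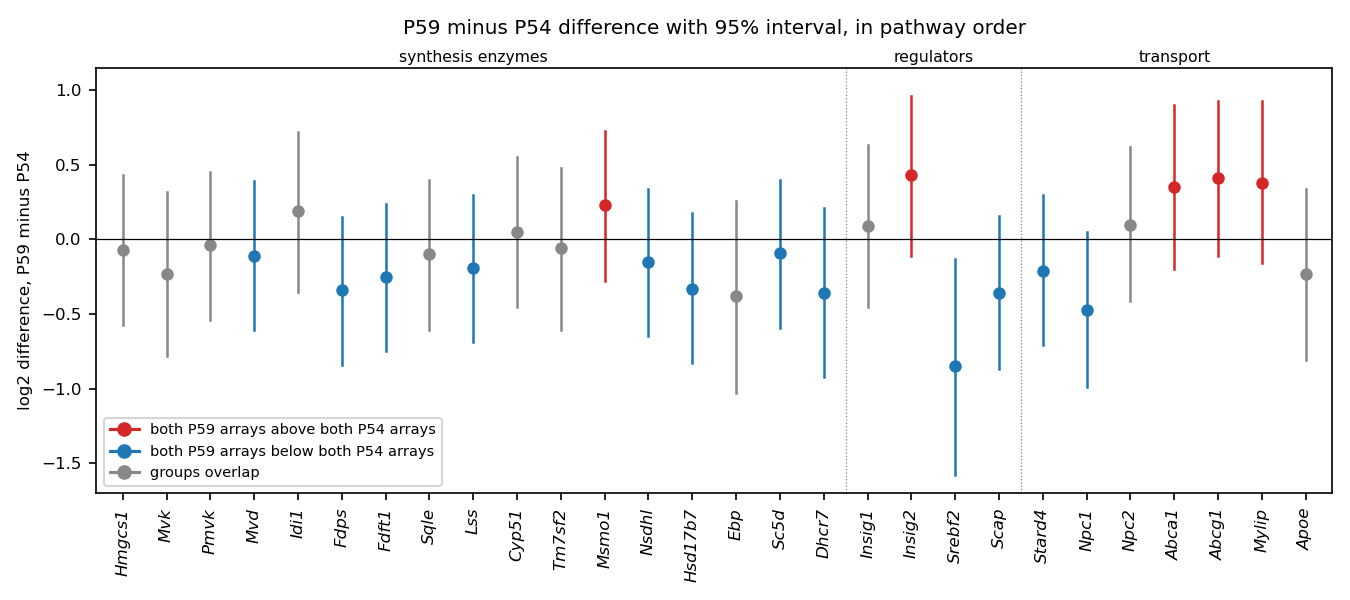
Log2 difference between P59 and P54 for each measured gene (points) with limma's 95% interval (bars), in pathway order and coloured by whether the groups overlapped. The interval of Srebf2 (-1.58 to -0.13) is the only one of the 28 that does not include 0.

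The promoters of the enzyme genes share letters that the choice of genes did not use. RefSeq windows (GRCm38.p6) of 250 bases before to 50 after each start were searched on both strands, and 23 of the 29 genes had an entry. CCAAT is bound by NF-Y, a factor known to act beside SREBPs, and TCACNCCA is the core of the sterol regulatory element. CCAAT stood in the window of 14 of 15 enzyme genes with an entry (93.3%) and in 41.1% of the 27025 genes in the table. By window, 37.4% of all 32851 held it. Acat2 was the enzyme gene without it. TCACNCCA stood in 2 of 15, Hmgcs1 and Msmo1 (13.3%), against 4.97% of genes and 4.36% of windows. The GC box GGGCGG stood in 14 of 15 (93.3%), against 38.2% of genes and 35.7% of windows, and the E-box CACGTG in 3 of 15 (20%), against 8.09% and 7.15%. No matches of different motifs overlapped in the members' windows. Fdps, Fdft1, Sqle, Stard4, Npc1 and Abcg1 had no entry. A match is a description of the letters and not a binding site. The shares are over all genes with a window, and those among the genes tested on the arrays were not computed. Whether the letters set the enzymes apart from other expressed genes was thus not tested.

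The stretches before the start of Hmgcs1 (chr13:119690101-119690350, plus strand) and Idi1 (chr13:8885356-8885605, plus strand) are shown. They were picked because these enzymes of 1 arm had means on opposite sides of P54 (differences of -0.07 and 0.19). The groups overlapped for both, and a relation of the letters to the differences was not tested. Capitals mark CCAAT, or ATTGG where it lies on the other strand, and TCACNCCA.
Hmgcs1 promoter: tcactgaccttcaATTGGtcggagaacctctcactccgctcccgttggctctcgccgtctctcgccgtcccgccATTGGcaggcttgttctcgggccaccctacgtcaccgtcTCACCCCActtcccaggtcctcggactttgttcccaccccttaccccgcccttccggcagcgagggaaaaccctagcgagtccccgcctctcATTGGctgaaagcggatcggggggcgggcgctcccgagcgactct
Idi1 promoter: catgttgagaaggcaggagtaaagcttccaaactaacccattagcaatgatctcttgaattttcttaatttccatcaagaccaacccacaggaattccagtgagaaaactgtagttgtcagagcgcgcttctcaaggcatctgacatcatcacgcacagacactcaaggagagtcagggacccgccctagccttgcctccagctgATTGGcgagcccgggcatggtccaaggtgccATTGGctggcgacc
Hmgcs1 has 3 CCAAT matches and 1 TCACNCCA match before its start, and Idi1 has 2 and 0.

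The 4 sterol regulators split in direction: Srebf2 and Scap were lower and Insig1 and Insig2 higher on average, with a median of -0.13. Srebf2 was at 9.47 and 9.45 at P54, at 9.15 in P59 replicate 1 and at 8.07 in P59 replicate 2. Both P59 arrays lay below P54, and the second lay far below the first. The difference was -0.85 (SE 0.32, 95% interval -1.58 to -0.13, unadjusted p = 0.0248, adjusted p = 0.648). A second probe set, at 8.46 and 8.66 against 8.10 and 7.38, differed by -0.82 in the same order. Without P59 replicate 2 the difference of Srebf2 was -0.32, and without P59 replicate 1 it was -1.39, so its size rests on which P59 array is kept. In the alternatives that kept all 4 arrays, its adjusted p in limma ran from 0.217 to 0.908.

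Scap, which escorts SREBP-2 to the site of its cleavage, had P54 values of 10.24 and 10.29 beside P59 values of 10.05 and 9.76. The groups were apart, again with P59 replicate 2 lowest, and the difference was -0.36 (SE 0.23, adjusted p = 0.893), or -0.21 with that array left out. Srebf1, which encodes the related SREBP-1 and was picked after its values were seen, differed by -0.18 with overlapping groups.

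Insig2 had P54 values of 9.91 and 9.68 beside P59 values of 10.05 and 10.40. All P59 values lay above all P54 values for each of its 3 probe sets, which differed by 0.37 to 0.57. The set used gave 0.43 (SE 0.24, 95% interval -0.11 to 0.96, adjusted p = 0.869), or 1.34-fold higher, and ran from 0.25 without P59 replicate 2 to 0.60 without P59 replicate 1. Insig1, whose protein binds SCAP in the same way and whose gene is a known SREBP target, had P54 values of 8.19 and 8.33 beside P59 values of 8.13 and 8.57. Insig1 overlapped, with a difference of 0.09 and a change of sign (-0.13) without P59 replicate 2. Whether Insig1 and Insig2 differ from each other was not tested.

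The promoters of Srebf2 (chr15:82147019-82147268, plus strand) and of the most upstream of 3 listed starts of Insig2 (chr1:121332590-121332839, minus strand) are shown because these regulators had the largest differences in each direction.
Srebf2 promoter: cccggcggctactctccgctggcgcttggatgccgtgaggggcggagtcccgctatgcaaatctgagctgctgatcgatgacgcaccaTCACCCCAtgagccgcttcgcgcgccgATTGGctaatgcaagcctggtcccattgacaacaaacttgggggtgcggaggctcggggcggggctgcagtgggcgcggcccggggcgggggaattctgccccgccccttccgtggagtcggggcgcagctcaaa
Insig2 promoter: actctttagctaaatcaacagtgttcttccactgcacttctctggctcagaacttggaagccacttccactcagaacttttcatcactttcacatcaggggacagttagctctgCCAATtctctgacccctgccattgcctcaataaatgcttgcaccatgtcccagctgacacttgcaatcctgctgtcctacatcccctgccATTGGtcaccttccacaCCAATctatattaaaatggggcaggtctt
With the same capitals, Srebf2 has 1 TCACNCCA and 1 CCAAT match before its start and Insig2 has 0 and 3. The other listed starts of Insig2 held no CCAAT, and which start is used in skin was not tested. Among the regulators with an entry CCAAT stood in 3 of 4, Scap being the exception.

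Of 7 genes for transport and efflux 4 were higher and 3 lower at P59 on average, with a median of 0.10 beside 0.05 over all genes. Without P54 replicate 1 these medians were 0.04 and 0.12, and without P59 replicate 1 they were 0.25 and 0.12, so the order of the list and all genes rests on single arrays. Abca1, which loads cellular cholesterol onto apolipoproteins, had P54 values of 11.38 and 11.53 beside P59 values of 11.57 and 12.04. The groups just failed to meet, and P59 replicate 2 was highest. The difference was 0.35 (SE 0.25, 95% interval -0.20 to 0.90, adjusted p = 0.917), and 0.12 without P59 replicate 2. A second set, at 8.60 and 8.0 against 9.19 and 9.11, differed by 0.85, and the mean of the Abca1 sets by 0.62.

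Abcg1, which exports cholesterol to lipoprotein particles, had P54 values of 8.75 and 8.83 beside P59 values of 9.03 and 9.38. These groups were clearly apart, as were those of its second set (6.45 and 6.48 against 7.0 and 7.39). The differences were 0.41 (SE 0.23, adjusted p = 0.869) and 0.73, and the first ran from 0.24 without P59 replicate 2 to 0.58 without P59 replicate 1. Mylip, a ubiquitin ligase that marks lipoprotein receptors for breakdown, had P54 values of 9.86 and 10.23 beside P59 values of 10.29 and 10.56. Its groups were apart by a small margin, with a difference of 0.38 (SE 0.24, adjusted p = 0.890) that ran from 0.20 without P54 replicate 1 to 0.57 without P54 replicate 2.

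Abca1, Abcg1 and Mylip are known targets of LXR, and they are set together here after their values were seen. Their median deviation from P54 was 0.24 in P59 replicate 1 and 0.58 in P59 replicate 2. Other known LXR targets did not all lie on that side. Srebf1 (above) is also one, and Apoe, the apolipoprotein E gene, another. Apoe was at 13.26 and 13.33 at P54, at 13.36 in P59 replicate 1 and at 12.76 in P59 replicate 2, and differed by -0.23 (0.07 without P59 replicate 2). Pltp, the phospholipid transfer protein gene, picked after its values were seen, was at 11.07 and 11.06 against 11.46 and 11.62, a difference of 0.47 (unadjusted p = 0.0611, adjusted p = 0.800). Nr1h3, which encodes LXR alpha, picked likewise, overlapped and differed by 0.17.

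Most macrophage markers were higher alongside these 3 genes. Of 11 markers tested 10 were higher at P59 on average (58.4% of all genes were), with a median log2 difference of 0.48. Their differences ran from -1.18 to 0.96, and 3 markers were below the P54 mean in P59 replicate 2. The mean log2 level of the list was 9.58 and 9.41 at P54 and 9.92 and 9.79 at P59. Every marker of that list was above the intensity filter. The part of macrophages in the levels of Abca1, Abcg1 and Mylip was not tested. Markers of sebocytes, the cells that make sebum, had a median of 0.14 with 8 of 10 tested higher, and their mean level was 10.80 and 10.92 at P54 and 10.96 and 10.93 at P59. Among them Mc5r was below the filter.

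Keratinocyte markers were lower alongside most enzymes, Srebf2 and Scap. All 8 basal keratinocyte markers were lower at P59 on average (41.6% of all genes were), with a median of -0.42. Their mean levels were 11.81 and 11.93 against 11.46 and 11.39. Suprabasal markers had a median of -0.12 with 7 of 9 lower (12.50 and 12.49 against 12.29 and 12.42). Adipocyte markers had a median of -0.20 with 5 of 7 lower (10.88 and 10.78 against 10.52 and 10.39). None of these markers was below the filter, and the part of these cell types in the enzyme levels was not tested. Markers of the inner root sheath, a layer of the growing hair follicle, had mean levels of 6.61 and 5.25 against 10.38 and 7.90 over the 6 above the filter. Single P54 values reached down to 4.49, under the filter, which these genes could pass through their P59 values, so no count or median is drawn from them. Krt73 of that list was below the filter, and the part of these cells was not tested.

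**Figure D3:**
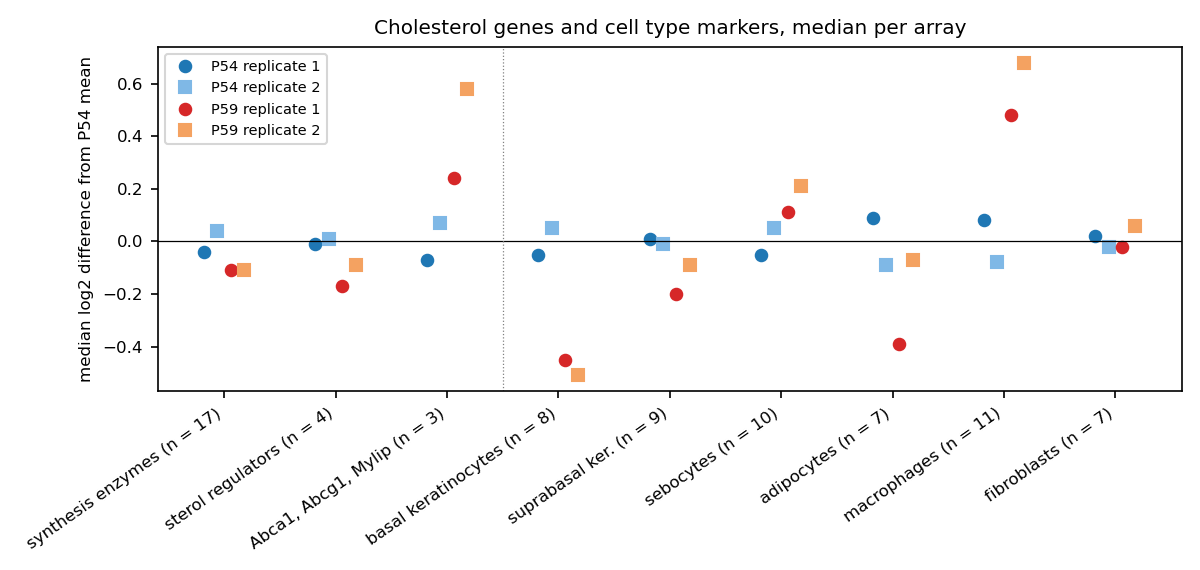
Median over the genes of a list of log2 intensity minus the P54 mean, for each array, with the number of genes in brackets. On both P59 arrays the enzymes lie at -0.11, the basal keratinocyte markers at -0.45 and -0.51, and the macrophage markers at 0.48 and 0.68. Abca1, Abcg1 and Mylip lie at 0.24 and 0.58, but they were set together after their values were seen. Their place above 0 thus follows from the choice. The whole list of transport and efflux genes, which includes Apoe, had medians of 0.07 and 0.25.

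Within the late endosome the proteins NPC2 and NPC1 hand cholesterol on in turn. Npc1 had P54 values of 8.46 and 8.76 beside P59 values of 8.22 and 8.06. The P59 values were both lower, and the difference was -0.47 (SE 0.23, 95% interval -0.99 to 0.05, unadjusted p = 0.0724, adjusted p = 0.828). Npc1 kept this sign in every alternative, between -0.62 and -0.32 when single arrays were left out. Npc2 was at 12.05 and 12.18 against 12.07 and 12.36 and overlapped, with a difference of 0.10 (-0.04 without P59 replicate 2), while its other sets above the filter differed by 0.16 and 0.50.

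Stard4, which ferries sterol through the cytosol and is a known SREBP-2 target, had P54 values of 8.46 and 8.30 beside P59 values of 8.09 and 8.26. The difference was -0.21 (SE 0.23, adjusted p = 0.952), and the nearest values of the groups lay close together. Its second set was at 8.03 and 8.31 against 7.39 and 7.68, clearly apart, and differed by -0.63. A dimmer set below the filter, at 6.89 and 7.03 against 6.37 and 5.85, differed by -0.85. All sets of Stard4 thus had lower P59 values, by -0.21 to -0.85.

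**Figure D4:**
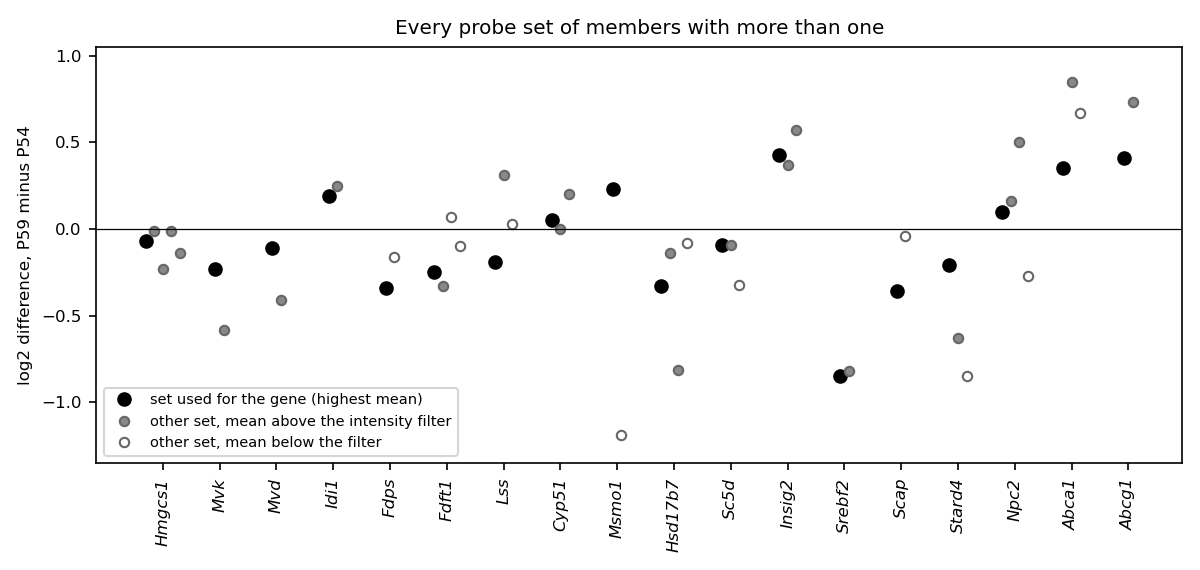
Log2 difference between P59 and P54 for every probe set of the 18 measured genes with more than 1 set. The sets of Insig2, Srebf2, Stard4, Abca1 and Abcg1 lie on 1 side of 0, whereas those of Lss, Msmo1, Fdft1 and Npc2 lie on both sides, which for the last 3 rests on sets below the filter.

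The promoters of Abca1 (chr4:53159896-53160145, minus strand) and Mylip (chr13:45389492-45389741, plus strand) are shown as the genes with higher P59 means that export cholesterol or limit its uptake.
Abca1 promoter: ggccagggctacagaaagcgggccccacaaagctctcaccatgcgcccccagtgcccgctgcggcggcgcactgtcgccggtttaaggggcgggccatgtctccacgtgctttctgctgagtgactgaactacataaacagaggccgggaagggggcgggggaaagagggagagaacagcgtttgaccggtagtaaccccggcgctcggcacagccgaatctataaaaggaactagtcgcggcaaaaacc
Mylip promoter: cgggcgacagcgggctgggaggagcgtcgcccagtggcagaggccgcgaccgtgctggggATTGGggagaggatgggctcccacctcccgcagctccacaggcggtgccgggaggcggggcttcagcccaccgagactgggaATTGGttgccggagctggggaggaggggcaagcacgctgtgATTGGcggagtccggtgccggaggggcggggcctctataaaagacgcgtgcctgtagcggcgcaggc
Abca1 has no CCAAT and no TCACNCCA match before its start, and Mylip has 3 CCAAT matches. Of 4 transport genes with an entry 2 held CCAAT, Npc2 and Mylip, and Apoe held TCACNCCA.

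In a wider list of 35 other cholesterol genes, 31 were measured and 28 tested. Of these 17 were higher (58.4% of all genes) and 11 lower (41.6%), with a median of 0.15. In limma 0 were past the adjusted threshold, and at an unadjusted p under 0.05 there were 4 higher (3.47% of all genes) and 1 lower (3.01%). The 6 with the smallest p are named here. By limma, Vldlr, a lipoprotein receptor and known target of the ligase made from Mylip, was at 9.28 and 8.82 against 10.04 and 9.78 (difference 0.86, unadjusted p = 0.00629, adjusted p = 0.492). Nceh1, a hydrolase of cholesterol esters, differed by 0.65 (7.86 and 7.51 against 8.10 and 8.57, adjusted p = 0.691). The lysosomal lipase gene Lipa differed by 0.57 (8.88 and 8.70 against 9.15 and 9.58, adjusted p = 0.746). Cyp27a1, which makes an oxysterol, was at 9.12 and 9.27 against 9.53 and 10.16 (difference 0.65, adjusted p = 0.723). The sets used for Vldlr and Lipa, like that of Pltp, may also hybridise with other transcripts, as their design suffix marks.

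Lower in that list were Scarb1, the receptor for high-density lipoprotein, and Ggps1, which uses farnesyl diphosphate for other isoprenoids. Scarb1 was at 9.33 and 9.55 at P54, at 9.29 in P59 replicate 1 and at 7.58 in P59 replicate 2, so its difference of -1.0 (adjusted p = 0.762) lay almost wholly in the last array. Ggps1 was at 8.34 and 8.74 against 7.95 and 8.10, low on both P59 arrays, with a difference of -0.52 (adjusted p = 0.782).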

How the data were processed

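Intensity values of 4 arrays were deposited by the authors as 1 table on a linear scale (6.41 to 24000); the submitters' processing notes name RMA and Affymetrix Expression Console, with the version and genome build not given in the sources used here. Their log2 was used, with no pseudocount. Of 45101 probe sets, 34958 were listed with 1 gene in a platform annotation from GEO that may be out of date, 932 with several and 9211 unlisted; 34754 matched RefSeq by Entrez identifier. The set with the highest mean stood for a gene, and the 10916 genes whose mean log2 intensity exceeded the 40th percentile were tested in limma 3.58.1 (R 4.3.3; lmFit, eBayes; 2 residual and 8.19 prior degrees of freedom), with Benjamini-Hochberg adjustment over all of them. The procedure was tested on simulated data for the sign of differences, interval coverage and false calls, not for its power to detect a change. The simulation drew the spread of each gene from limma's fitted prior and gave it to all 4 arrays alike. It thus did not test arrays of unequal spread. All members were named, as were the 6 wider-list genes with the smallest p. Srebf1, Nr1h3 and Pltp, also of the wider list, were named after their values were seen, and the rest are counts. The number of arrays, 2 per group, limits precision. The members, lists and tests were chosen with earlier results of these data known. Some pathway genes were not analysed here. Alternatives changed the filter, the probe set rule, the normalization, the variance model, the array weights, the replicate block and the arrays included.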

Additional observations from a re-analysis of the deposited data

How the results depend on the processing

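Over 13 alternatives, 16 members had 1 sign in every value computed. Of 363 member values 14 changed sign, most near 0. With the mean of all probe sets Lss differed by 0.05 and Msmo1 by -0.48, and with each set tested by itself the tested sets of Lss had a median of 0.06; for Msmo1 a dim set enters the mean. Pmvk was at 0.0022 with arrays centred on their median, a setting that moves the median of all genes from 0.05 to 0.10. Leaving out 1 array at a time, the ranges that crossed 0 were Apoe -0.53 to 0.07, Cyp51 -0.03 to 0.14, Ebp -0.80 to 0.03, Hmgcs1 -0.16 to 0.02, Insig1 -0.13 to 0.31, Mvk -0.47 to 0.01, Npc2 -0.04 to 0.25, Sqle -0.22 to 0.01 and Tm7sf2 -0.28 to 0.15. For a lone array these fits assume the spread of the other group.

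The enzyme median of -0.11 (0.05 over all genes) was -0.15 with the mean of all sets (0.02) and -0.06 with centred arrays (0.10). Without single arrays it was -0.18 to -0.08, while that of all genes ran from -0.03 to 0.12. The regulator and transport medians moved by less than the spread between replicates. Over all genes, 708 were at an unadjusted p under 0.05 in the main limma fit. There were 1122 without the filter and 704 with the mean of sets. Without P59 replicate 1 the counts of members and of all genes both rose, as given above. No count over all single sets is given here, and the member counts that follow were not tested against those of all genes. Members at an unadjusted p under 0.05 numbered 2 without the filter, 4 with the mean of sets, 4 over single sets and 1 to 7 without single arrays, 7 being without P59 replicate 1; 0 to 1 passed the adjusted threshold, the 1 being Srebf2 without P59 replicate 1. Members above both P54 arrays numbered 6 to 9 when a P59 array was left out. That count, the like count below, and the counts of lower enzymes (12 to 14) and higher transport genes (4) under each alternative were added after the data were seen.

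Genes past the adjusted threshold numbered 2 of 10916, with 708 at an unadjusted p under 0.05. They numbered 0 without the filter, at the 60th percentile, with the mean of sets, over single sets and after repeated quantile normalization (458 to 1122 genes at an unadjusted p under 0.05 in limma where genes were the unit). They numbered 47 with centred arrays, 23 with a trend and robust prior, 9 with array weights and 29 to 401 without single arrays. With the replicate block they numbered 155, and 0 members passed. Replicate deviations of the 2 groups correlated at -0.04 across genes, so the numbers were not taken to pair samples. The causes were not tested.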
